A study of Drosophila melanogaster with 21 samples.

Results

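The cytosolic ribosomal protein genes of Drosophila melanogaster L1 neurons are described here over 3 pupal ages. They were taken as every gene of the deposited RNA table whose name begins with RpL (large subunit) or RpS (small subunit), which gave 84 of 7076 genes, 50 RpL and 34 RpS. All 84 had a level that allowed a test. The large-subunit names include RpLP0-like and RpL24-like, whose counterparts in yeast act in assembly of the large subunit and are not part of the finished ribosome. The small-subunit protein gene sta and the ribosome-bound scaffold gene Rack1 carry other names and were kept outside the count.

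L1 neurons are lamina neurons of the fly visual system that receive input from photoreceptors. The study asked how the wiring programs of lamina neurons are timed. Its bulk libraries came from wild-type brains, from cells that were sorted by fluorescence-activated cell sorting (FACS) as L1 neurons at 40 h, 60 h or 72 h after puparium formation. There were 2, 3 and 2 polyadenylated RNA libraries at these ages and 2 libraries per age for the assay of transposase-accessible chromatin (ATAC-seq). The drivers or markers of the sort, the number of animals behind a library, and whether replicates came from separate animals or sorts were not given in the sources used here, so a p-value here speaks for the spread of these libraries alone.

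A ribosome holds a single copy of nearly every one of its proteins, and the genes that encode them are among the most strongly expressed in most cells. In flies, loss of a single copy of many of these genes gives the Minute phenotype of slow growth and thin bristles. Their transcripts start with a pyrimidine-rich stretch through which the TOR pathway controls their translation, and their promoters depend on the factors M1BP and Trf2. Some of the proteins have duplicated genes in the fly genome, of which one copy is often used mainly in the germ line.

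Levels are given in RPKM, reads per kilobase of gene after the authors' scaling of each library, so they can be compared between genes and, as far as that scaling holds, between libraries. The libraries held 22.5 M to 39.5 M recovered reads. The ratio of recovered reads to the size used in scaling was 0.832 to 0.857 in the 40 h libraries, 0.998 to 1.02 in the 60 h libraries and 1.10 to 1.19 in the 72 h libraries, so every comparison of levels between ages depends on the scaling. The L1 marker svp had 109 to 139 RPKM in all 7 libraries and the vesicular glutamate transporter gene VGlut 207 to 700 RPKM. Of the 6 listed L1 and neuron markers, 3 were higher and 2 lower at 72 h against 40 h. All genes tested had 30.2% higher and 29.1% lower there. The 4 markers of other lamina neurons summed to 34.4 to 44.6 RPKM per library. The 4 hemocyte markers summed to 24.5 and 26.3 RPKM at 40 h and to 84.2 and 61.9 RPKM at 72 h. Of 3 tested, 1 was higher and 2 lower. Of 9 glial markers in the table, 8 were higher at 72 h than at 40 h, with summed levels of 550 and 1671 RPKM at 72 h against 24.3 and 40.7 RPKM at 40 h, and the glial regulator repo had 5.08 and 16.7 RPKM at 72 h against 0.253 and 1.14 RPKM at 40 h. The 11 photoreceptor markers summed to 36.5 and 122 RPKM at 40 h, 283, 548 and 92.6 RPKM at 60 h, and 50.2 and 152 RPKM at 72 h. The part of glial, photoreceptor or hemocyte RNA in the results below was not tested. In bulk libraries fewer cells of a type and less RNA per cell cannot be told apart.

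The ribosomal protein genes kept a flat summed level on the deposited scale while their share of all summed RPKM was lower at each later age. The 84 genes summed to 55598 and 49294 RPKM at 40 h, to 57122, 48219 and 51757 RPKM at 60 h, and to 49523 and 54652 RPKM at 72 h. The ranges of the 3 ages overlapped. The sum over all genes was 382476 RPKM at 40 h, 455752 RPKM at 60 h and 550387 RPKM at 72 h on average. Of that sum the members made up 13.98% and 13.4% in the 40 h libraries, 12.4%, 10.4% and 11.7% in the 60 h libraries, and 8.72% and 10.3% in the 72 h libraries. Both 72 h libraries lay below all others and both 40 h libraries above all others.

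The mean share was 9.49% ± 1.09 at 72 h and 13.7% ± 0.392 at 40 h (SD, n = 2 each), with 11.5% ± 0.994 at 60 h (SD, n = 3). The non-coding RNA gene noe alone took 7.17% of the sum at 72 h, 5.98% at 60 h and 3.76% at 40 h. Without noe and the mitochondrial genes the members' share was still lower at each later age, at 14.6%, 12.6% and 10.7% from the youngest to the oldest. Of the recovered reads, which are not divided by gene length, the members had 5.65%, 4.76% and 4.13% on average at 40 h, 60 h and 72 h, and there 60 h and 72 h overlapped (4.34% to 5.16% at 60 h, 3.76% and 4.49% at 72 h).

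The rank of the genes moved with the share. Among the 100 genes with the highest RPKM of a library, 48 and 46 were members in the 40 h libraries, 35, 30 and 33 in the 60 h libraries, and 12 and 22 in the 72 h libraries. The top of the distribution of all genes was higher at each later age: its 95th percentile averaged 186 RPKM at 40 h, 244 RPKM at 60 h and 284 RPKM at 72 h, while its median averaged 16.8, 16.5 and 16.05 RPKM at these ages. The members' own median was 620 RPKM at 40 h, 616 RPKM at 60 h and 582 RPKM at 72 h.

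**Figure D1:**
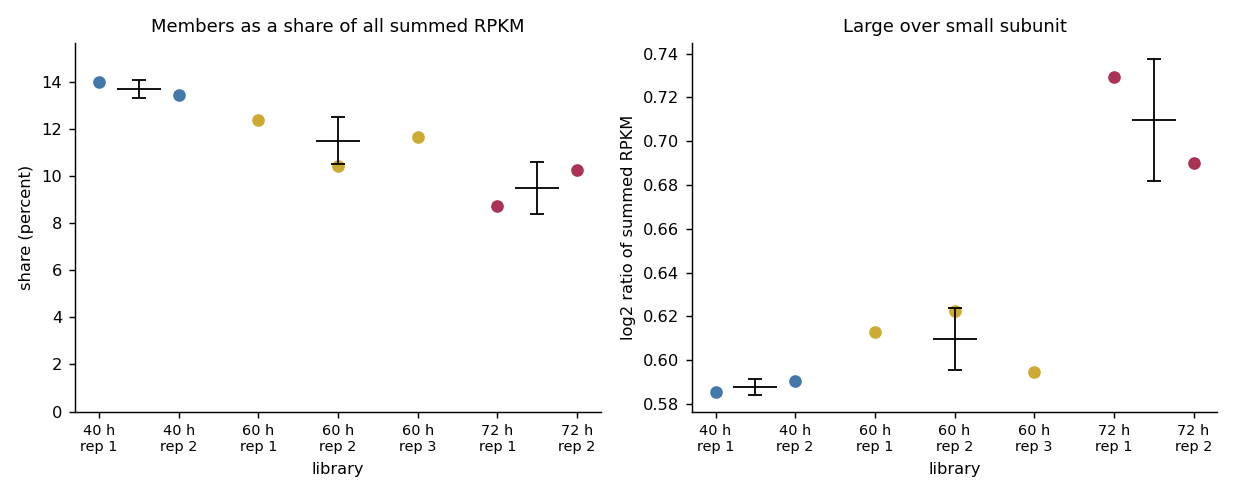
Left, summed RPKM of the 84 ribosomal protein genes as a percentage of all summed RPKM, and right, the log2 ratio of summed large-subunit over summed small-subunit RPKM, by library. Points are libraries, horizontal marks and bars are the mean ± SD of an age (n = 2, 3 and 2); the mean share was 13.7%, 11.5% and 9.49% and the mean ratio 0.59, 0.61 and 0.71 at 40 h, 60 h and 72 h.

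The balance of the subunits within a library leaned further to the large subunit at 72 h than at the earlier ages. The log2 ratio of summed large-subunit to summed small-subunit RPKM was 0.585 and 0.590 in the 40 h libraries, 0.613, 0.622 and 0.594 in the 60 h libraries, and 0.729 and 0.690 in the 72 h libraries. The 3 ages did not overlap, and the step was mainly between 60 h and 72 h. The ratio averaged 0.71 ± 0.028 at 72 h and 0.59 ± 0.0037 at 40 h (SD, n = 2 each), which is 1.64 large-subunit to 1 small-subunit RPKM at 72 h against 1.503 at 40 h. A ratio within a library does not change with the library's scaling factor, and after quantile normalization, which gives every library the same distribution of values, it was also higher at 72 h (0.694, against 0.588 at 40 h), but there 60 h replicate 3 (0.583) lay below both 40 h libraries. Taken from the subunits' median RPKM instead of their sums, the log2 ratio overlapped between neighbouring ages, with -0.191 and -0.120 at 40 h, -0.146 to -0.068 at 60 h, and -0.00214 and -0.0729 at 72 h.

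The large-subunit sum was 824 RPKM higher at 72 h than at 40 h and the small-subunit sum 1182 RPKM lower, both within the spread of the sums between libraries. Single genes differed by more than 300 RPKM in both directions. RpL15 (458 RPKM), RpL21 (454 RPKM) and RpL14 (335 RPKM) added most to the large subunit at 72 h, and RpL13A (-311 RPKM) took most away. In the small subunit RpS5a (-265 RPKM), RpS7 (-226 RPKM) and RpS13 (-201 RPKM) were furthest below their 40 h levels, and RpS30 (397 RPKM) furthest above. No test was made on these sums.

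The genes spanned a wide range of levels. RpL40, a fusion of ubiquitin with a large-subunit protein, was the highest, with 1758 and 1626 RPKM at 40 h, 2029, 1732 and 1809 RPKM at 60 h, and 2019 and 2004 RPKM at 72 h. Next came the stalk protein gene RpLP2 with 1014 to 1675 RPKM, RpL14 with 978 to 1413 RPKM, the second ubiquitin fusion RpS27A with 1121 to 1316 RPKM, and RpL15 with 1001 to 1622 RPKM over the 7 libraries. The ranges of these 4 genes overlapped, so their order is not separated from the spread between libraries. RpL40 stood above RpLP2 in every library.

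At the low end stood RpL34a with 101 to 151 RPKM, RpS14b with 73.3 to 139 RPKM, RpS15Ab with 14.6 to 28.6 RPKM, RpLP0-like with 7.60 to 21.5 RPKM and RpS5b with 0.0864 to 11.3 RPKM. RpL34a, RpS14b, RpS15Ab and RpS5b have a paralog at a higher level, and RpLP0-like belongs to an assembly factor. The lowest of the genes without a named copy in the table was RpS9, with 99.5 to 146 RPKM. Replicates were close: the median SD between libraries of an age was 0.118, 0.159 and 0.117 at 40 h, 60 h and 72 h for members and 0.158, 0.157 and 0.156 for all genes, on the log2 scale.

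**Figure D2:**
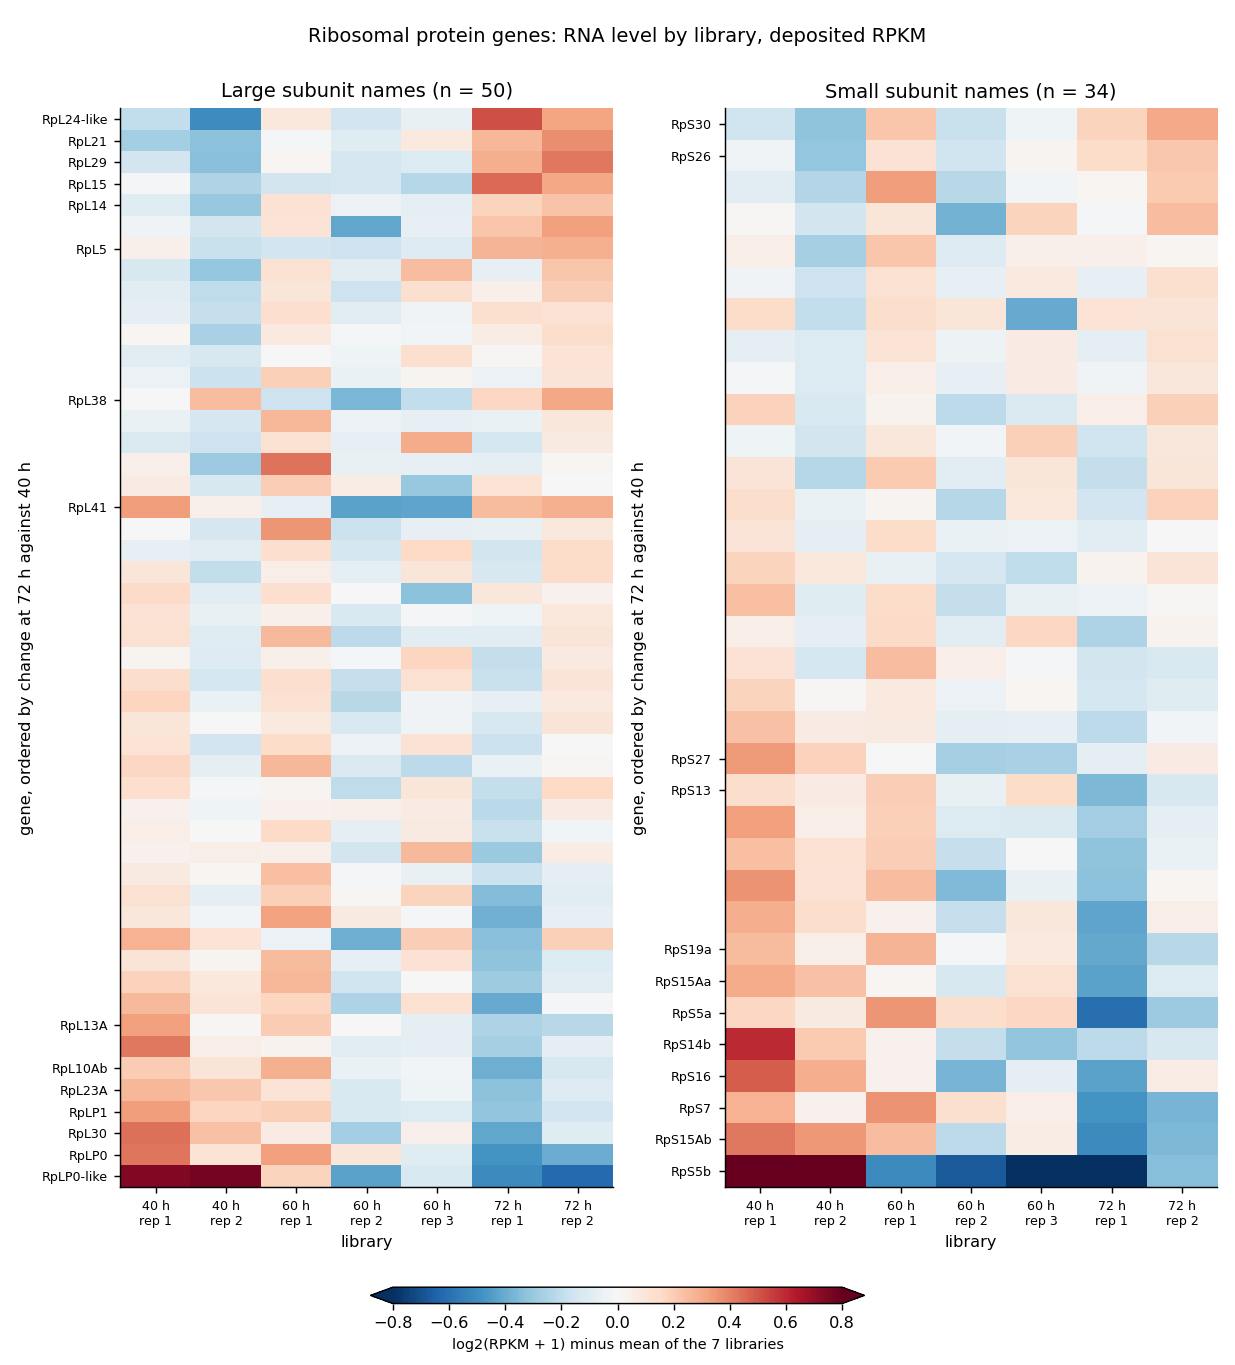
RNA levels of the 84 ribosomal protein genes in the 7 libraries, as log2(RPKM + 1) minus the gene's mean over the libraries, with large-subunit names left and small-subunit names right. Gene names mark called members, rows are ordered by the change at 72 h against 40 h and colours are held at ± 0.8; RpL24-like, RpL21, RpL29 and RpL15 lead the left panel and RpS5b closes the right one.

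Tests were made with limma on log2(RPKM + 1) over all 6939 genes that passed the filter, and a gene is called where its Benjamini-Hochberg adjusted p is under 0.05. On the deposited scale 28 of the 84 members (16 large, 12 small) were called in at least 1 of the 3 comparisons and 56 in none, where 67.6% of all genes tested were called in at least 1. The changes of those 56 lay between -0.40 and 0.40 on the log2 scale in every comparison. In the large subunit they were RpL3, RpL4, RpL6 to RpL13 other than RpL10Ab and RpL13A, RpL17, RpL18, RpL19, RpL22 to RpL28 other than RpL23A and RpL24-like, RpL31 to RpL40 other than RpL38, and RpLP2. In the small subunit they included RpS2, RpS3, RpS3A, RpS4, RpS6, RpS9, RpS10b, RpS12, RpS14a, RpS15, RpS18, RpS20, RpS21, RpS23, RpS24, RpS25, RpS27A, RpS28b and RpS29.

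At 60 h against 40 h, 0 members were higher and 8 were lower (4 large, 4 small), 9.52% of the 84. Over all genes tested 47.7% were called, 25.2% higher and 22.5% lower. Without adjustment, 13 members had p under 0.05. The median change was -0.003 for members and -0.002 for all genes on the log2 scale. Without 40 h replicate 1 the lower calls were 3, and without 60 h replicate 2 they were 4.

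RpS5b, a copy known from fly ovaries, fell most. It had 9.64 and 11.3 RPKM at 40 h, 1.07, 0.857 and 0.0864 RPKM at 60 h, and 0.544 and 1.33 RPKM at 72 h. The 40 h libraries stood apart from the other 5, with a log2 change of -2.83 ± 0.34 (SE, limma adjusted p = 5.8e-05) at 60 h against 40 h and -2.59 ± 0.37 (limma adjusted p = 0.00014) at 72 h against 40 h. These values rest on 423 and 494 reads at 40 h, 29, 18 and 2 reads at 60 h, and 12 and 32 reads at 72 h, so the level after 40 h is imprecise. The size of the change moved with the pseudocount and the scaling. It was -4.15 at 60 h and -3.46 at 72 h with a pseudocount of 0.1. With the pseudocount kept and all libraries brought to equal summed RPKM, it was -3.08 and -2.95. Voom on the recovered reads, which differs in both, gave -4.70 and -4.01.

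RpLP0-like had 21.1 and 21.5 RPKM at 40 h, 14.0, 8.83 and 11.1 RPKM at 60 h, and 8.27 and 7.60 RPKM at 72 h. The 3 ages did not overlap. It changed by -0.88 ± 0.20 (limma adjusted p = 0.0047) at 60 h and by -1.32 ± 0.22 (limma adjusted p = 0.00045) at 72 h, both against 40 h. Its span overlaps that of Jra, whose level was 57.8, 62.5 and 59.9 RPKM on average at 40 h, 60 h and 72 h. Only the RpS5b and RpLP0-like calls at 60 h against 40 h kept their side of the threshold under every alternative listed in the closing section.

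The other 6 lower calls were RpS14b (-0.56 ± 0.14), RpS27 (-0.43 ± 0.12), RpL41 (-0.49 ± 0.14), RpS16 (-0.53 ± 0.16), RpL38 (-0.37 ± 0.12) and RpL30 (-0.39 ± 0.14), with limma adjusted p between 0.0072 and 0.037. RpS27, a zinc-binding protein of the small subunit, had 513 and 460 RPKM at 40 h, 407, 337 and 339 RPKM at 60 h, and 385 and 423 RPKM at 72 h. RpS16, whose tail touches transfer RNA in the decoding centre, had 387 and 339 RPKM at 40 h, 283, 213 and 263 RPKM at 60 h, and 205 and 288 RPKM at 72 h. RpL30 had 354 and 308 RPKM at 40 h, 273, 216 and 268 RPKM at 60 h, and 196 and 244 RPKM at 72 h. In all 3 genes every 60 h library was below both 40 h libraries. Without 40 h replicate 1 the call was lost for RpS14b (-0.37, adjusted p = 0.08), RpS27 (-0.35, 0.082), RpL41 (-0.35, 0.13), RpS16 (-0.43, 0.13) and RpL30 (-0.29, 0.21). The RpL38 call was lost without 40 h replicate 2 (-0.25, adjusted p = 0.18) and without 60 h replicate 2 (-0.30, 0.098), and 60 h replicate 2 also decided RpL41 (-0.43, 0.055), RpS16 (-0.41, 0.074) and RpL30 (-0.29, 0.13).

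At 72 h against 60 h, 7 members were higher and 4 lower, against 33.0% of all genes called (16.6% higher, 16.4% lower). All 7 higher members were of the large subunit, with 1 large-subunit and 3 small-subunit members lower. The median change was -0.02 in the large and -0.05 in the small subunit, and -0.01 over all genes. Without 60 h replicate 2 or without 72 h replicate 2 the higher calls were 4. The lower calls were 2 without 72 h replicate 1 and 8 without 72 h replicate 2.

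RpL15 had 1173 and 1001 RPKM at 40 h, 1067, 1078 and 1010 RPKM at 60 h, and 1622 and 1467 RPKM at 72 h. Both 72 h libraries were above all others, with a change of 0.55 ± 0.12 (limma adjusted p = 0.0051) against 60 h. RpL5, which carries the 5S ribosomal RNA into the large subunit together with RpL11, had 280 and 242 RPKM at 40 h, 246, 244 and 254 RPKM at 60 h, and 330 and 333 RPKM at 72 h (0.42 ± 0.10, limma adjusted p = 0.0082 against 60 h). Its partner RpL11 had 391 and 393 RPKM at 40 h, 392, 344 and 457 RPKM at 60 h, and 310 and 396 RPKM at 72 h, and its change against 60 h of -0.17 ± 0.14 did not pass (limma adjusted p = 0.4). The difference between these partners was not tested.

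RpL29 had 633 and 556 RPKM at 40 h, 708, 638 and 650 RPKM at 60 h, and 859 and 938 RPKM at 72 h. RpL21 had 861 and 827 RPKM at 40 h, 1031, 970 and 1097 RPKM at 60 h, and 1250 and 1346 RPKM at 72 h. Both were highest at 72 h, and RpL21 also separated 60 h from 40 h without passing the test there (0.29 ± 0.11, limma adjusted p = 0.054). Against 60 h RpL29 rose by 0.43 ± 0.11 (limma adjusted p = 0.013) and RpL21 by 0.33 ± 0.11 (limma adjusted p = 0.043). The RpL21 call at this step was lost without any 1 of the 7 libraries (0.28 to 0.38, adjusted p = 0.052 to 0.18). The RpL29 call was lost without 60 h replicate 2 (0.40, adjusted p = 0.053) and without 72 h replicate 2 (0.37, adjusted p = 0.079).

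RpL38 and RpL41, encoding small proteins of the large subunit, were lowest at 60 h on the deposited scale. RpL38 had 521 and 616 RPKM at 40 h, 463, 403 and 454 RPKM at 60 h, and 583 and 645 RPKM at 72 h. RpL41 had 857 and 698 RPKM at 40 h, 647, 504 and 507 RPKM at 60 h, and 809 and 825 RPKM at 72 h. In both genes each 60 h library was below all 4 others. They were lower at 60 h than at 40 h (above) and higher at 72 h than at 60 h, by 0.48 ± 0.12 (RpL38, limma adjusted p = 0.0094) and 0.57 ± 0.14 (RpL41, limma adjusted p = 0.0096), and at 72 h against 40 h neither was called (0.12 and 0.08). The RpL38 rise was lost without 72 h replicate 2 (0.41, adjusted p = 0.065). The rise at 72 h against 60 h was not called on other scalings: it was 0.18 (RpL38) and 0.29 (RpL41) after quantile normalization, 0.21 and 0.30 with equal summed RPKM, and 0.30 and 0.38 with voom on the recovered reads (adjusted p = 0.075 to 0.3). The change at 72 h against 40 h turned sign there: both genes were called lower after quantile normalization (-0.54 and -0.56, limma adjusted p = 0.0055 and 0.0035) and with equal sums (-0.41 and -0.45, 0.029 and 0.015), and had -0.32 and -0.36 with voom without passing. Of the 7 higher calls at 72 h against 60 h, 0 were kept after quantile normalization, and 1, RpL15, with equal sums and with voom. RpL24-like, the seventh, is described with its paralog.

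The 4 lower members at 72 h against 60 h were RpS5a, RpS7, RpS19a and RpLP0. RpS5a, which lines the mRNA exit side of the small subunit, had 855 and 801 RPKM at 40 h, 977, 841 and 857 RPKM at 60 h, and 502 and 625 RPKM at 72 h (-0.67 ± 0.13 against 60 h, limma adjusted p = 0.0024). RpS7 had 735 and 621 RPKM at 40 h, 780, 662 and 628 RPKM at 60 h, and 435 and 468 RPKM at 72 h (-0.60 ± 0.13, limma adjusted p = 0.0041). For both, the 72 h libraries were below all 5 earlier ones. RpS19a, whose human counterpart is mutated in Diamond-Blackfan anaemia, had 419 and 363 RPKM at 40 h, 425, 348 and 371 RPKM at 60 h, and 265 and 302 RPKM at 72 h (-0.43 ± 0.12, limma adjusted p = 0.02). The RpS19a call was lost without 60 h replicate 1 (-0.35, adjusted p = 0.07) and without 72 h replicate 1 (-0.33, adjusted p = 0.15).

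RpLP0 forms the base of the ribosomal stalk, where elongation factors bind. It had 570 and 457 RPKM at 40 h, 530, 452 and 396 RPKM at 60 h, and 304 and 321 RPKM at 72 h. The 72 h libraries were again the lowest, by 0.55 ± 0.14 on the log2 scale against 60 h (limma adjusted p = 0.013, and 0.079 without 72 h replicate 1). Of its stalk partners, RpLP1 had 653 and 583 RPKM at 40 h, 590, 476 and 481 RPKM at 60 h, and 417 and 465 RPKM at 72 h, and was called lower at 72 h against 40 h (-0.49 ± 0.14, limma adjusted p = 0.011). RpLP2 and RpL12 did not pass in any comparison on the deposited scale (0.10 ± 0.19 and 0.08 ± 0.14 at 72 h against 40 h). After quantile normalization both were called lower, as were RpLP0 and RpLP1, with changes of -0.61 (RpLP2, limma adjusted p = 0.0078) and -0.54 (RpL12, 0.0092) at 72 h against 40 h and -0.53 (0.02) and -0.41 (0.041) at 72 h against 60 h.

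**Figure D3:**
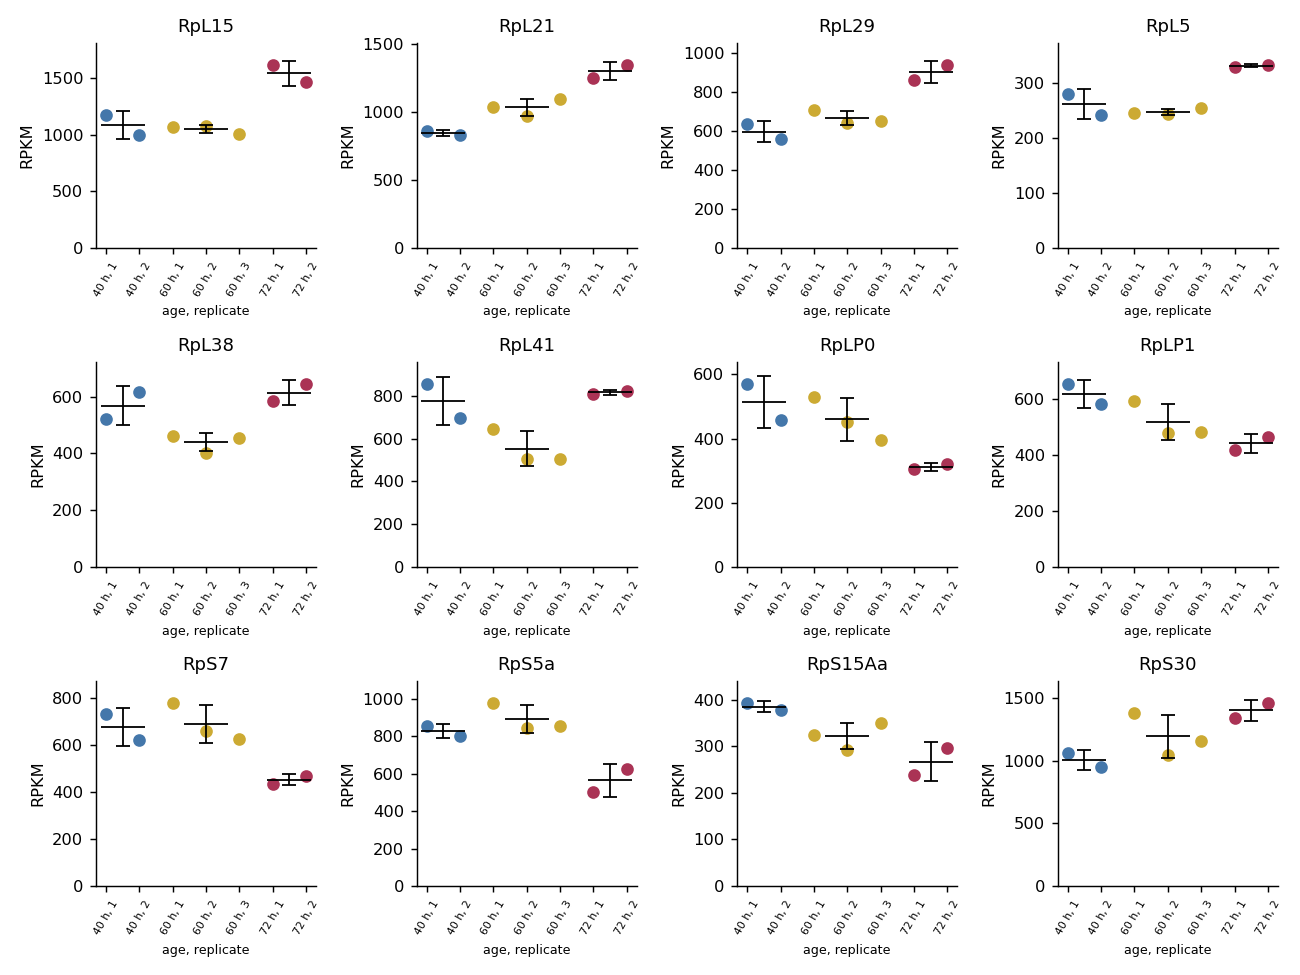
RPKM by library for 12 called ribosomal protein genes; points are libraries, horizontal marks and bars the mean ± SD of an age (n = 2, 3 and 2), and each vertical axis starts at 0. RpL15, RpL21, RpL29 and RpL5 are highest at 72 h, RpL38 and RpL41 are lowest at 60 h, and RpLP0, RpS7 and RpS5a are lowest at 72 h.

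At 72 h against 40 h, 8 members were higher (6 large, 2 small) and 17 lower (8 large, 9 small), where 59.3% of all genes were called (30.2% higher, 29.1% lower). The median change was -0.01 in the large subunit, -0.11 in the small subunit and -0.01 over all genes. Of the large-subunit members 23 had a positive and 27 a negative change, and of the small-subunit members 12 and 22. The higher calls were 3 without 40 h replicate 2 and 4 without 72 h replicate 2, and the lower calls were 9 without 40 h replicate 1 and 7 without 72 h replicate 1.

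The higher members at 72 h were RpL24-like (0.77 ± 0.14), RpL21 (0.62 ± 0.12), RpL29 (0.60 ± 0.12), RpL15 (0.51 ± 0.13), RpS30 (0.48 ± 0.15), RpL14 (0.40 ± 0.13), RpL5 (0.35 ± 0.11) and RpS26 (0.35 ± 0.13), with limma adjusted p between 0.00067 and 0.043. RpS30, made as a fusion with a ubiquitin-like protein, had 1059 and 948 RPKM at 40 h, 1380, 1046 and 1156 RPKM at 60 h, and 1341 and 1460 RPKM at 72 h. The ubiquitin fusions RpL40 and RpS27A did not pass on the deposited scale (0.25 ± 0.14 and 0.11 ± 0.13), and were called lower after quantile normalization (-0.48 and -0.56, limma adjusted p = 0.0083 and 0.0024). RpS26 lies where the mRNA leaves the small subunit and had 435 and 359 RPKM at 40 h, 481, 397 and 450 RPKM at 60 h, and 492 and 515 RPKM at 72 h. Without 40 h replicate 2 the calls of RpL15 (0.40, adjusted p = 0.056), RpS30 (0.40, 0.1), RpL14 (0.30, 0.14), RpL5 (0.24, 0.12) and RpS26 (0.21, 0.26) were lost, while RpL24-like, RpL21 and RpL29 were still called whichever 1 library was left out. These 3 calls did depend on the scaling. RpL29 had 0.06 after quantile normalization, 0.07 with equal sums and 0.16 with voom (adjusted p = 0.64, 0.58 and 0.28), and RpL21 had -0.11, 0.09 and 0.18 (0.4, 0.51 and 0.18). RpL24-like was called after quantile normalization, at 0.35, but not with equal sums (0.24, adjusted p = 0.086) or voom (0.33, 0.062). Without 72 h replicate 2, RpS30 (0.42, adjusted p = 0.086), RpL14 (0.38, 0.081), RpL5 (0.34, 0.057) and RpS26 (0.31, 0.14) were not called, and without 72 h replicate 1 neither were RpL14 (0.43, 0.057), RpL5 (0.35, 0.051) and RpS26 (0.38, 0.082).

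The 17 lower members included RpS5b, RpLP0-like, RpLP0 (-0.71 ± 0.15), RpS15Ab (-0.82 ± 0.18), RpS7 (-0.58 ± 0.14), RpS15Aa (-0.53 ± 0.13) and RpS5a (-0.56 ± 0.14), with limma adjusted p of 0.0053 or less. All of these but RpS5a, which was lost without 72 h replicate 1 (-0.40, adjusted p = 0.05), were called under every alternative tried. RpS15Aa had 393 and 377 RPKM at 40 h, 323, 292 and 349 RPKM at 60 h, and 238 and 296 RPKM at 72 h. The other 10 included RpL30 (-0.59), RpS14b (-0.57), RpS16 (-0.57), RpLP1 (-0.49), RpS19a (-0.46), RpL23A (-0.46), RpL10Ab (-0.41), RpL13A (-0.41) and RpS13 (-0.35), with limma adjusted p between 0.006 and 0.047. Each of these 10 calls was lost without at least 1 of 40 h replicate 1 and 72 h replicate 1, with adjusted p of up to 0.25 there. Of the 8 proteins at the exit of the peptide tunnel, 1 was called on the deposited scale, where 59.3% of all genes were called. It was RpL23A, the docking site of the signal recognition particle. After quantile normalization 56 members not called as deposited were called lower, among them RpL35 (-0.97), RpL26 (-0.78), RpL31 (-0.67) and RpL19 (-0.63).

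The picture changed when the distributions of the libraries were made equal. After quantile normalization the lower calls at 72 h against 40 h were 75 of 84 (44 large, 31 small), with 1 member higher, where 31.2% of all genes were lower and 29.6% higher. The members' median change was -0.68, against -0.02 over all genes. It was -0.63 in the large and -0.75 in the small subunit, against -0.01 and -0.11 on the deposited scale. The quantile-normalized medians had the other order at 72 h against 60 h, at -0.38 in the large and -0.33 in the small subunit. The difference between the subunits' medians was not tested. All 17 members that were lower on the deposited scale were lower here as well, and so were 56 that had not been called and 2 that had been higher, RpL5 (-0.38) and RpS26 (-0.39). The 1 higher member was RpL24-like (0.35 ± 0.12, limma adjusted p = 0.031).

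The same normalization gave 42 lower members and 0 higher at 60 h against 40 h (24.9% of all genes lower and 24.9% higher, median of members -0.33), and 43 lower and 0 higher at 72 h against 60 h (17.6% of all genes lower and 14.5% higher, median -0.36). The size of the typical member's change therefore depended on the scaling: the median at 72 h against 40 h was -0.06 as deposited, 0.001 with each library centred on its median gene, -0.50 with voom on the recovered reads, -0.58 with equal summed RPKM and -0.68 after quantile normalization. With all libraries brought to equal summed RPKM, 69 members were lower at 72 h against 40 h and 0 higher, but there the median over all genes also stood at -0.48, close to the members' -0.58. Over all genes 48.3% were lower and 18.7% higher. With limma-voom on the recovered reads 55 were lower and 0 higher, where 43.9% of all genes were lower and 20.1% higher. In the earlier steps equal sums gave 31 lower members at 60 h against 40 h (34.3% of all genes lower, 18.6% higher) and 35 lower and 1 higher at 72 h against 60 h (30.7% lower, 10.4% higher). Voom gave 29 lower members at 60 h against 40 h (34.6% of all genes lower, 17.7% higher), and 16 lower and 1 higher at 72 h against 60 h (21.1% lower, 11.0% higher). Centred on the members' own median, which asks only how they moved among themselves, 10 of the 17 lower calls and all 8 higher calls at 72 h against 40 h were kept, where 23.3% of all genes were lower and 29.7% higher.

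**Figure D4:**
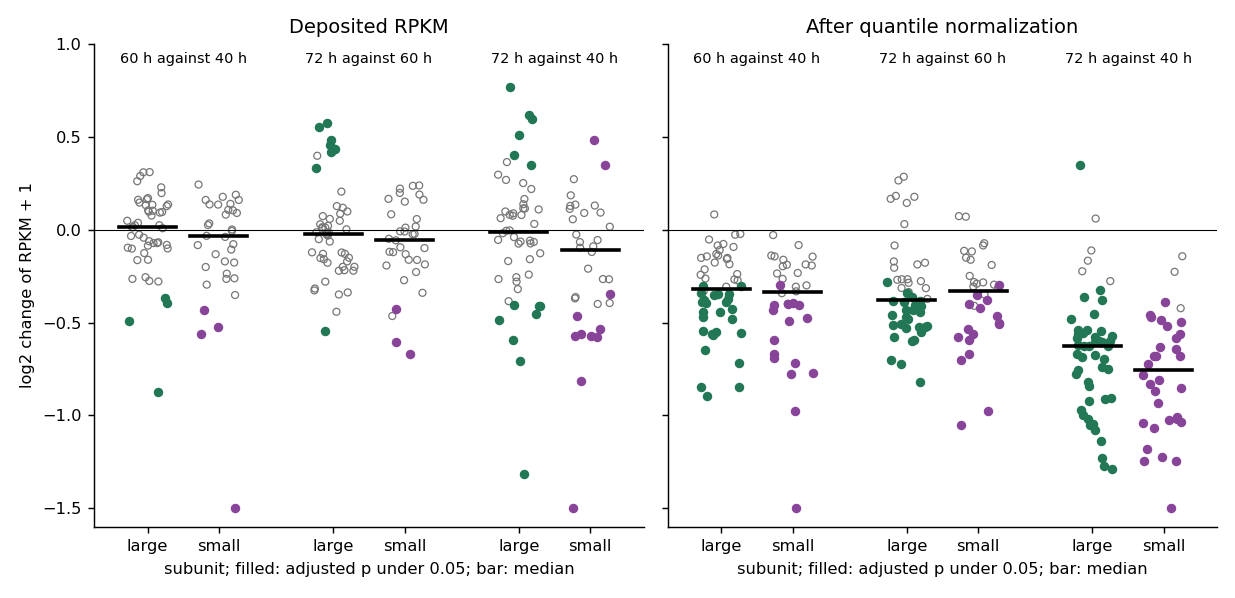
Log2 changes of the 50 large-subunit and 34 small-subunit genes in each comparison, on the deposited scale (left) and after quantile normalization (right). Points are genes, filled where called (green large, purple small), black bars are medians and values under -1.5 are drawn at -1.5; on the left the medians lie near 0, on the right at -0.33, -0.36 and -0.68 for all members from the first to the last comparison.

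In 6 pairs of paralogs both genes were in the table, and their ratio within a library was compared between the 3 ages with an exact permutation test over all 210 assignments of libraries, in which the smallest possible p is 0.0095. RpS5b fell relative to RpS5a: RpS5b made up 1.11% and 1.39% of the pair in the 40 h libraries, 0.11%, 0.102% and 0.0101% in the 60 h libraries, and 0.108% and 0.212% in the 72 h libraries. The later shares rest on 2 to 32 reads of RpS5b per library. Both 40 h libraries stood above the other 5. The log2 ratio of RPKM + 1 averaged -6.18 ± 0.21 at 40 h, -9.11 ± 0.45 at 60 h and -8.21 ± 0.20 at 72 h (SD, n = 2, 3 and 2), with exact permutation p = 0.0095, the smallest the test can give, and 0.029 after adjustment over the 6 pairs. After 40 h RpS5b had 1.33 RPKM or less, so the size of these later ratios depends on the added 1.

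RpL24-like gained on RpL24. It had 138 and 111 RPKM at 40 h, 168, 142 and 152 RPKM at 60 h, and 227 and 197 RPKM at 72 h, where RpL24 had 435 and 372 RPKM, 420, 331 and 379 RPKM, and 369 and 407 RPKM at the same ages. RpL24-like was thus higher at each later age without overlap, while RpL24 overlapped throughout. Its share of the pair was 23.5% at 40 h, 29.1% at 60 h and 35.3% at 72 h (log2 ratios -1.69, -1.28 and -0.87, exact permutation p = 0.0095, 0.029 adjusted over the 6 pairs). Beside its rise at 72 h against 40 h, RpL24-like was higher at 72 h than at 60 h (0.46 ± 0.13, limma adjusted p = 0.017), which did not pass without 60 h replicate 2 (0.40, adjusted p = 0.064) or 72 h replicate 1 (0.36, 0.14). The gene overlaps Dtd, which had 38.6 RPKM in 72 h replicate 1 and 18.6 to 23.4 RPKM in the other 6 libraries. Leaving out any 1 library left adjusted p for these 2 pairs between 0.05 and 0.2, since fewer assignments remain.

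RpS14a and RpS14b are neighbouring X-linked genes that encode the same protein, so that reads may be split between them in a way not given in the sources used here. RpS14b had 139 and 106 RPKM at 40 h, 93.4, 79.8 and 73.3 RPKM at 60 h, and 78.9 and 83.5 RPKM at 72 h, against 674 to 947 RPKM for RpS14a. The share of RpS14b in the pair was 13.9% ± 0.43 at 40 h, 8.88% ± 0.75 at 60 h and 8.95% ± 0.43 at 72 h (exact permutation p = 0.095, 0.14 adjusted over the 6 pairs). RpLP0-like to RpLP0 had log2 ratios of -4.52, -5.24 and -5.13 on average (exact permutation p = 0.086, 0.14 adjusted).

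RpS15Ab lay far below RpS15Aa at all ages, with 6.77%, 6.35% and 5.49% of the pair at 40 h, 60 h and 72 h, and both genes were lower at 72 h than at 40 h. RpL34a held 32.4%, 32.8% and 27.1% of its pair with RpL34b. Neither ratio passed the test (exact permutation p = 0.22 and 0.3). Quantile normalization does not keep ratios between genes of different level, and under it the differences at 72 h against 40 h of RpS15Ab to RpS15Aa, RpL34a to RpL34b and RpLP0-like to RpLP0 changed sign.

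**Figure D5:**
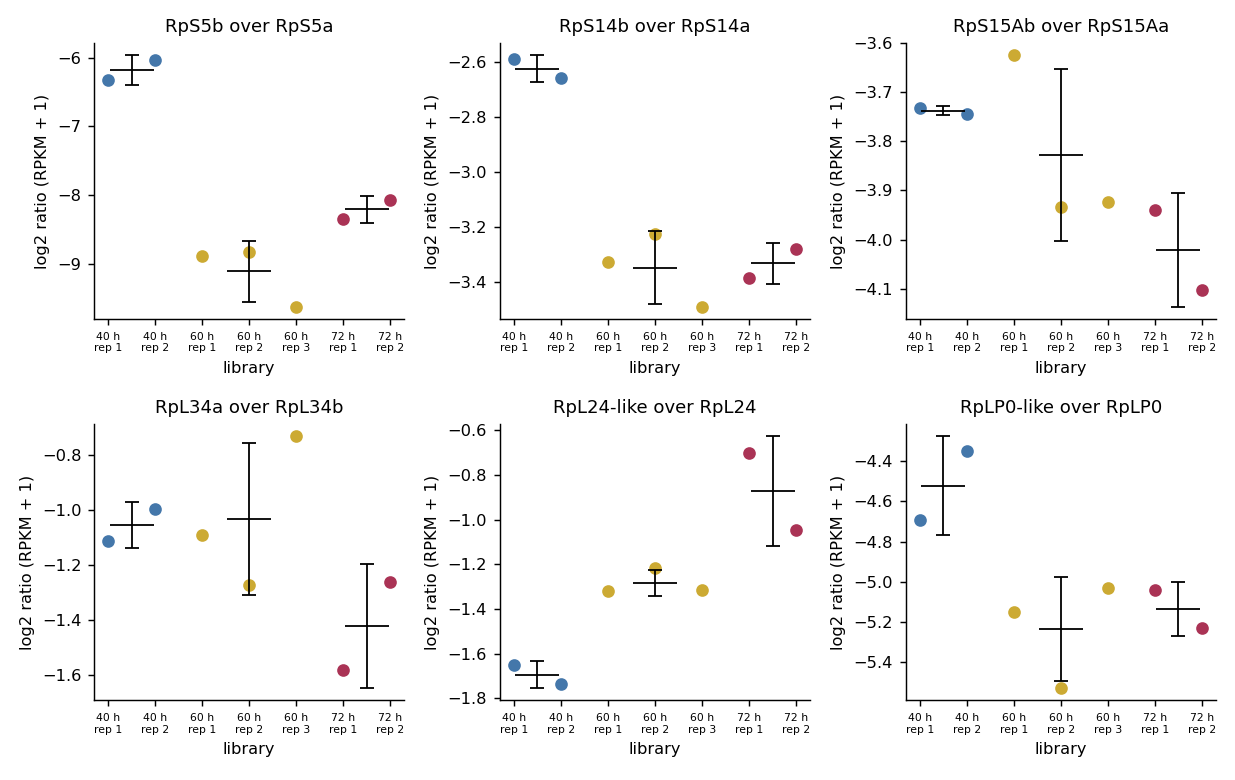
Log2 ratio of RPKM + 1 of the first over the second gene of 6 paralog pairs, by library. Points are libraries and horizontal marks and bars the mean ± SD of an age (n = 2, 3 and 2); vertical axes differ between panels and do not start at 0. RpS5b over RpS5a and RpS14b over RpS14a are highest at 40 h, and RpL24-like over RpL24 is highest at 72 h.

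Genes around the ribosome were counted from lists. Of the 2 ribosomal genes outside the name rule, sta had 779 and 715 RPKM at 40 h, 559, 516 and 519 RPKM at 60 h, and 460 and 478 RPKM at 72 h, and changed by -0.67 at 72 h against 40 h (limma adjusted p = 0.00039), and Rack1 was not called in any comparison. Of 30 tested ribosome assembly genes, 4 were higher and 2 lower at 60 h against 40 h, 1 higher and 11 lower at 72 h against 60 h, and 3 higher and 12 lower at 72 h against 40 h. Over all genes tested 25.2% were higher and 22.5% lower in the first of these comparisons, 16.6% and 16.4% in the second, and 30.2% and 29.1% in the last. The list's median change was -0.38 in the last comparison (-0.28 after quantile normalization), against -0.01 over all genes. The small nucleolar ribonucleoprotein genes hoip (-2.52), NHP2 (-1.89) and Nop56 (-0.91) fell at 72 h against 40 h, as did Nop17l (-1.19), Non3 (-1.01) and Surf6 (-1.0). NHP2 had 23.9 and 23.5 RPKM at 40 h, 11.7, 11.2 and 10.1 RPKM at 60 h, and 5.30 and 6.03 RPKM at 72 h, without overlap between ages. The 3 higher ones at 72 h, named after their values were seen, were Ip259 (0.78), eIF6 (0.71) and CG8549 (0.86), of which Ip259 overlaps RpS27A in the annotation and eIF6 encodes a factor that holds the large subunit apart from the small one.

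Of 19 tested regulators, 4 were higher and 4 lower at 72 h against 40 h, a smaller share in each direction than the 30.2% and 29.1% over all genes. Myc, a transcriptional activator of ribosome production, had 5.25 and 7.42 RPKM at 40 h, 1.33, 0.681 and 1.46 RPKM at 60 h, and 0.517 and 1.27 RPKM at 72 h (-1.77 at 60 h and -1.97 at 72 h against 40 h, limma adjusted p = 0.00081 and 0.00053). Tor (-0.73) and Xrp1 (-0.74) were also lower at 72 h than at 40 h, and REPTOR (1.23) and REPTOR-BP (0.89), factors active when TOR is off, and AMPKalpha (1.07) were higher. M1BP (-0.53, lower) and S6k (0.53, higher) complete these counts and were named after their values were seen. Of 8 elongation and related genes, 1 was higher and 5 lower in the same comparison. They were listed as genes whose transcripts have a pyrimidine-rich start, which was not checked here. eEF1alpha2 had 1592 and 1506 RPKM at 40 h, 1564, 1333 and 1293 RPKM at 60 h, and 301 and 395 RPKM at 72 h (-2.16 at 72 h against 40 h, limma adjusted p = 7.3e-07). eEF1beta (-1.63), eEF1gamma (-1.46), Tctp (-0.72) and eEF1delta (-0.57) fell too, while eEF2 rose on the deposited scale (0.49, limma adjusted p = 0.0062) and had -0.18 after quantile normalization.

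Open chromatin was measured in 26121 peaks, called once for all libraries, each with its nearest gene as deposited. Members were the nearest gene of 113 peaks, 60 of them at distance 0 from the start of 59 members (36 large, 23 small). For 20 members no peak had them as its nearest gene. RpS14a, RpS14b, RpL36 and RpL14 were among those 20, and RpL14 and RpL36 were among the 7 members with the most RNA. A peak near these 20 members can be listed under another gene. Whether their starts lay in open chromatin was not tested. Levels are RPKM of a peak after scaling to reads in peaks. The start peaks had a median width of 649.5 bp and a median level of 62.5, against 643 bp and 61.8 for all peaks at distance 0.

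At 60 h against 40 h, 2 of 103 tested member peaks were higher and 0 lower, against 26.7% of all tested peaks called (10.7% higher, 16.0% lower). At an unadjusted p under 0.05, limma's test counted 7 member peaks there. At 72 h against 60 h, 1 was higher and 0 lower, against 5.11% of all peaks (0.723% higher, 4.39% lower), with 6 at an unadjusted p under 0.05. At 72 h against 40 h, 17 were higher and 8 lower, against 55.4% of all peaks (26.0% higher, 29.4% lower). Of the 58 tested start peaks 2 were higher and 8 lower in that last comparison, where 5.47% of all peaks at distance 0 were higher and 32.9% lower. These counts moved with single libraries: the higher calls at 60 h against 40 h were 20 without 60 h replicate 1, those at 72 h against 60 h were 15 without 60 h replicate 2, and those at 72 h against 40 h were 3 without 40 h replicate 2, 5 without 72 h replicate 2, and 30 and 29 without 60 h replicate 1 and 2. The lower calls at 72 h against 40 h were 2, 1 and 0 without 40 h replicate 1, 40 h replicate 2 and 72 h replicate 2. Calls over all 23508 tested peaks moved as well. The higher calls at 60 h against 40 h were 6155 without 60 h replicate 1, against 2518 with all libraries. Those at 72 h against 60 h were 3377 without 60 h replicate 2, against 170. At 72 h against 40 h the higher calls were 2379 without 40 h replicate 2 and 7520 without 60 h replicate 1, against 6108. The lower calls there were 6459, 4455 and 5383 without 40 h replicate 1, 40 h replicate 2 and 72 h replicate 2, against 6908.

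The start peak of RpL41, at chr2R:24902302-24904373, was the clearest change. Its level was 38.8 and 42.9 in the 40 h libraries, 78.8 and 80.6 in the 60 h libraries, and 93.6 and 106 in the 72 h libraries, with no overlap between ages, and rose by 0.95 ± 0.19 at 60 h and 1.27 ± 0.19 at 72 h against 40 h on the log2 scale (limma adjusted p = 0.0031 and 0.00028). RpL41 lies within the span of the sodium channel gene NaCP60E, whose RNA was at 1.60 and 3.62 RPKM at 40 h, 12.7, 19.4 and 18.3 RPKM at 60 h, and 23.8 and 22.5 RPKM at 72 h (2.80 ± 0.29 at 72 h against 40 h, limma adjusted p = 1.3e-05), whereas RpL41 RPKM was lowest at 60 h. Which gene the peak belongs to was not tested.

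The other start peak called higher was that of RpL13 (0.57 ± 0.20), with 64.1 and 68.0 at 72 h against 41.9 and 46.3 at 40 h. The 8 lower start peaks at 72 h included those of RpL30 (-0.69), RpS15Aa (-0.91), RpL22 (-0.68), RpS9 (-0.72), RpL37a (-0.67), RpL26 (-0.54) and RpL7A (-0.77), with limma adjusted p between 0.0078 and 0.04. RpL30 and RpS15Aa were also lower in RNA. The RpL30 peak, at chr2L:19008909-19009497, had 92.5 and 97.6 at 72 h against 147 and 161 at 40 h. After quantile normalization 1 of these 8 was called lower, RpS15Aa (-1.02, limma adjusted p = 0.018), and 10 start peaks were higher, where 14.6% of all peaks at distance 0 were lower and 11.4% higher. Over all member peaks it gave 18 higher and 1 lower, against 21.0% and 22.0% of all peaks. Of the 28 members called in RNA 18 had a tested start peak, and 4 of these peaks were called in some comparison. The other 14 changed by -0.57 to 0.60 at 72 h against 40 h without passing. Among all peaks at distance 0, 5.47% were higher and 32.9% lower in that comparison alone, so 4 of 18 is no excess. The RpS5b start peak had 36.3 and 47.6 at 72 h against 27.7 and 26.5 at 40 h (0.60 ± 0.24, limma adjusted p = 0.052), that of RpLP0 changed by -0.11 ± 0.20, that of RpS7 by 0.28 ± 0.23 and that of RpL15 by -0.27 ± 0.24.

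Of the 45 tested member peaks away from a start, 15 were higher and 0 lower at 72 h against 40 h, where 33.1% of all peaks away from a start were higher and 28.1% lower. The higher count is thus near the background. Of the 15, 12 had RpL15 or RpL38 as their nearest gene. RpL15 was the nearest gene of 25 peaks, 24 of them away from its start by up to 46980 bp. Of the 25, 22 were tested and 7 were higher at 72 h than at 40 h. RpL38 had 6 peaks, none at its start, and 5 were higher, led by chr2R:4526664-4527371 with 47.7 and 56.5 at 72 h against 20.0 and 16.6 at 40 h (1.46 ± 0.25, limma adjusted p = 0.00061). Nearest-gene assignment does not show which gene a peak acts on.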

How the data were processed

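Bulk RNA-seq (7 libraries) and ATAC-seq (6 libraries) of sorted L1 neurons were analysed, and the 8 single-cell samples were not used here. RNA was converted with SMART-seq2, per the labels' protocols. The authors deposited RPKM for 7076 genes, per the file headers, with a filter that is not given. The unit of the deposited ATAC levels is not labelled and was read as RPKM of a peak, because its product with peak width moved in whole steps that were the same across a library. Bowtie2 2.2.9, MACS2 2.1.1, bedtools and edgeR 3.26.8 are named, without roles, per the submitters' processing notes. Build, gene model and handling of shared reads are not given in the sources used here. Peak positions stand as the authors deposited them.

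Reads were recovered from RPKM times gene length (7073 of 7076 genes, all 84 members, within 0.01 of a read), with 2 to 494 reads per library for RpS5b and 182 or more for every other member. The fits held 6939 genes (1 RPKM or more in 2 or more libraries) and 23508 peaks (the lowest 10% by mean left out), made with limma 3.58.1 (R 4.3.3) on log2(value + 1), in 1 fit over the 3 ages with trended moderation and no block. This scale understates changes of low genes. Tests were two-sided with Benjamini-Hochberg adjustment over all features. Both procedures were tested on simulated data. The names of 84 members were matched to RefSeq genes (Release 6), where 22 overlapped another protein-coding gene and 28 a small nucleolar RNA gene. Strand use in counting is not given, so reads of overlapping genes cannot be told apart.

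Named genes were paralogs, the 5 highest and 5 lowest members, called members (up to 10 per comparison in full), called peaks (up to 8 per comparison) and, of each list, up to 6 called genes. A few members enter every count, but their own values are not reported here. Members and lists were chosen with earlier results of these data known. Alternatives were other scalings (quantile, equal sums, median centring, recovered reads with voom), another pseudocount, no filter, a replicate block and left-out libraries. Centring on the members, the share without noe and mitochondrial genes, the share of reads, and the subunit ratio without the 2 -like genes were added after seeing the data.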

Additional observations from a re-analysis of the deposited data

How the results depend on the processing

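Counts of called members (higher and lower) moved with scaling. At 60 h against 40 h they were 0 and 42 with quantile normalization, 0 and 31 with equal RPKM sums and 0 and 29 with voom on recovered reads, against 0 and 8; median centring gave 2 higher. At 72 h against 60 h these settings gave 0 and 43, 1 and 35, and 1 and 16, against 7 and 4. At 72 h against 40 h they gave 1 and 75, 0 and 69, and 0 and 55, against 8 and 17, and centring on the members 10 lower. Without 60 h replicates 1 and 2, the libraries with the highest photoreceptor marker sums, which leaves 1 library at 60 h that is assumed to vary like those of the other ages, the counts were 5 lower, then 1 higher and 0 lower, then 5 higher. The cause of these moves was not tested. Pseudocount 0.1 and no filter kept all counts within 1.5 times. Leaving out 1 library gave 0 to 1 higher and 3 to 10 lower at 60 h against 40 h, 4 to 7 and 2 to 8 at 72 h against 60 h, and 3 to 8 and 7 to 20 at 72 h against 40 h. A left-out library changes the test for every gene. These counts, here and above, thus do not show whether members moved apart from other genes.

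Of the members called on the deposited scale, changes reversed at 72 h against 40 h with quantile normalization for RpL21 (-0.11), RpL15 (-0.17), RpL5 (-0.38), RpS30 (-0.14), RpL14 (-0.22) and RpS26 (-0.39), with equal sums for RpL15 (-0.015), RpL5 (-0.18), RpS30 (-0.044), RpL14 (-0.12) and RpS26 (-0.18), and with voom for RpL5 (-0.093), RpL14 (-0.039) and RpS26 (-0.091). RpL21 at 72 h against 60 h reversed with quantile normalization (-0.085). RpL38, RpL41, RpLP2, RpL12, RpL40 and RpS27A, not called at 72 h against 40 h, were positive as deposited, and these 6 turned negative with quantile normalization (-0.61 to -0.48, all called lower), equal sums (-0.45 to -0.27) and voom (-0.36 to -0.19).

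In ATAC, member peaks within 500 bp of a start gave 1 higher at 60 h and 3 higher at 72 h against 40 h, and quantile normalization 2 higher at 72 h against 60 h and 1 lower at 72 h against 40 h. Leaving out 1 library gave 1 to 20 higher and 0 to 2 lower, 0 to 15 and 0 to 4, and 3 to 30 and 0 to 9 in the 3 comparisons. For all 23508 peaks the same ranges were 1437 to 6155 and 2089 to 4409, then 16 to 3377 and 202 to 2822. In the last comparison they were 2379 to 7520 and 4455 to 7391.

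The share differences were -0.891, -0.637 and -1.53 points from recovered reads (60 h minus 40 h, 72 h minus 60 h, 72 h minus 40 h), and -5.18 for the last after quantile normalization, against -2.21, -2.005 and -4.21. Without 1 library they ranged over -2.66 to -1.68, -2.78 to -1.23 and -4.99 to -3.44. The subunit ratio from medians differed by 0.042 and 0.076 in the first 2 steps, against 0.022 and 0.10. Without 1 library its differences were 0.016 to 0.030, 0.080 to 0.12 and 0.10 to 0.14.

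Paralog differences at 72 h minus 40 h with quantile normalization were -0.36 for RpS14b to RpS14a (past the threshold, adjusted p = 0.019), 0.37 for RpS15Ab to RpS15Aa, 0.025 for RpL34a to RpL34b and 0.020 for RpLP0-like to RpLP0. Without 60 h replicates 1 and 2, RpS5b to RpS5a (-2.03) and RpL24-like to RpL24 (0.82) no longer passed (adjusted p = 0.16), since fewer assignments remain. Without 1 library the 6 differences ranged over -2.18 to -1.88, -0.76 to -0.66, -0.37 to -0.20, -0.53 to -0.21, 0.65 to 0.99 and -0.78 to -0.44, in the order of the pairs of RpS5b, RpS14b, RpS15Ab, RpL34a, RpL24-like and RpLP0-like.

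Same-numbered libraries of different ages did not deviate together at every pair of ages: correlations ran from -0.09 to 0.22 in RNA and from -0.47 to 0.53 in ATAC, so the numbers were not taken as pairs. With the replicate block the counts were 1 and 8, 6 and 4, and 8 and 16 in RNA, and 3 and 0, 1 and 0, and 21 and 6 in ATAC.

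With 2 or 3 libraries an age, small changes of single genes are near the limit of the test.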

Other observations

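Members were ordered along each chromosome arm by RefSeq position, a look chosen after the values were seen. Of the members nearest the centromere, RpL5 on 2L (0.42), RpL38 on 2R (0.48) and RpL15 on 3L (0.55) were among the 7 called higher at 72 h against 60 h (log2 changes, limma). RpL35A on 3R (-0.12), RpS10b on X (-0.16) and RpS3A on 4 (0.20) were not called. Of the next members, RpL21 on 2L was called higher (0.33) and RpS5a on X lower (-0.67), and RpL31 on 2R (0.01), RpL10 on 3L (0.10) and RpL13A on 3R (-0.28) were not called. All genes tested had 16.6% called higher at 72 h against 60 h. After quantile normalization the higher calls of RpL5 (0.17), RpL38 (0.18), RpL15 (0.18) and RpL21 (-0.085) were lost. Of these, RpL15 alone was kept with equal sums and with voom. No test of position was made.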
